A study of Caenorhabditis elegans with 15 samples.

Results

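The Hedgehog-related and patched-related genes of Caenorhabditis elegans were followed across 5 genotypes of young adult animals. A gene was taken when the WormBase symbol of its identifier in the deposited count table began with grl, grd, wrt, hog, ptr or ptc followed by a number, which gave 84 of 47111 genes. They comprised 31 ground-like genes (grl), 16 groundhog genes (grd), 10 warthog genes (wrt) and hog-1, which together are 58 ligand-like genes, and 24 patched-related genes (ptr) with ptc-1 and ptc-3, which are 26 receptor-like genes. The study sequenced poly-A RNA from whole animals carrying the puf-8 allele ust221, ust222, ust223 or ok302, and from the wild type N2, the usual laboratory strain, with 3 libraries each. PUF-8 is an RNA-binding protein of the Pumilio family, and the design compares the 4 alleles with N2. All groups were labelled young adult, were synchronised, plated as larvae, and fed Escherichia coli OP50 at 20 °C. The labels add a short code to each ust allele that is not interpreted here, and give no genetic background beyond the allele. Nor is it said whether the 3 libraries of a genotype are separate cultures, so the p-values speak only to the spread among these samples, and that spread may be technical.

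Nematodes have lost a classical Hedgehog and its transducer Smoothened, but carry large families of secreted proteins that resemble it. In the warthog and groundhog families and in HOG-1, some members keep the Hint module, the self-cleaving part of Hedgehog proteins. The ground-like family has a conserved cysteine-rich domain, the ground-like domain, which is also listed for most groundhog genes. The patched and patched-related proteins are membrane proteins with a sterol-sensing domain that act in cuticle formation, osmoregulation and trafficking, and transcripts of many of these genes pulse with each larval molt.

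Total counts ranged from 20969800 to 29352254 per library. The puf-8 gene itself had 7, 11 and 3 counts in ok302, against 2043, 3899 and 2267 in N2, and between 737 and 5008 in the ust libraries. A set of 3 libraries stood apart from the rest of their genotypes: N2 replicate 1 and ust222 replicates 1 and 3. Their summed level of 25 sperm genes was 29.1 to 35 CPM (counts per 1000000 counts, library sizes scaled with TMM factors), against 105 to 331 CPM in the other 12. The labels call every library young adult, and 10 adult genes (vitellogenins, adult collagens, rme-2) summed to between 14437 and 68334 CPM in all of them. That sum did not separate the 3 libraries that stood apart, which had 33264 to 34894 CPM. The mean log2 CPM of the same 10 genes did, at 8.55 to 8.84 in these 3, against 9.51 to 11.03 in the other 12. A list of 15 other cuticle collagens (dpy, rol, sqt, bli and col genes) summed to 2042, 90.9 and 2001 CPM in ust222. It summed to 1273, 1427 and 1433 CPM in ok302 and to 2592, 107 and 171 CPM in N2. In ust223 the sums were 753, 622 and 366 CPM, and in ust221 68, 201 and 49.5 CPM. Because the Hedgehog-related genes also split along these 3 libraries, each comparison is given for all 15 libraries and for the 12 without them. In the 12 libraries ust222 has a single library, which is assumed to vary like the other groups. Against ok302 its levels are given there in place of calls.

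The deposited table lists a ground-like domain for 42 of the 84 genes, a patched family domain for all 26 receptor-like genes and a Hint module for 9 ligand-like genes: wrt-1, wrt-4, wrt-6, wrt-7, wrt-8, grd-1, grd-2, grd-11 and hog-1. It lists no domain for 10. Chromosome V holds 32 of the genes, among them 19 ground-like ones. After the filter on low counts 76 genes were tested. The other 8 were grd-8, grl-11, grl-19, grl-24, grl-28, grl-29, grl-30 and grl-31, each with at most 60 counts over all libraries, and no gene was at 0 in every library. A mean of at least 10 counts in each of the 5 genotypes was reached by 51 genes.

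Levels per length, in CPM per kb of gene length as deposited, spanned several orders of magnitude. The groundhog genes grd-5 and grd-3 were the most abundant, with 213 and 173 CPM per kb over all libraries, followed by grd-10 with 96.4 and the ground-like gene grl-4 with 65.2. Among the receptor-like genes ptc-1 stood highest with 52.4 CPM per kb and ptr-2 next with 44.6, while ptc-3 had 12.9. The warthog genes were led by wrt-5 with 24.9 and wrt-10 with 20.1 CPM per kb. The median gene of a family stood much lower, at 2.94 CPM per kb for warthog, 2.40 for patched-related, 0.938 for groundhog and 0.786 for ground-like genes.

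**Figure D1:**
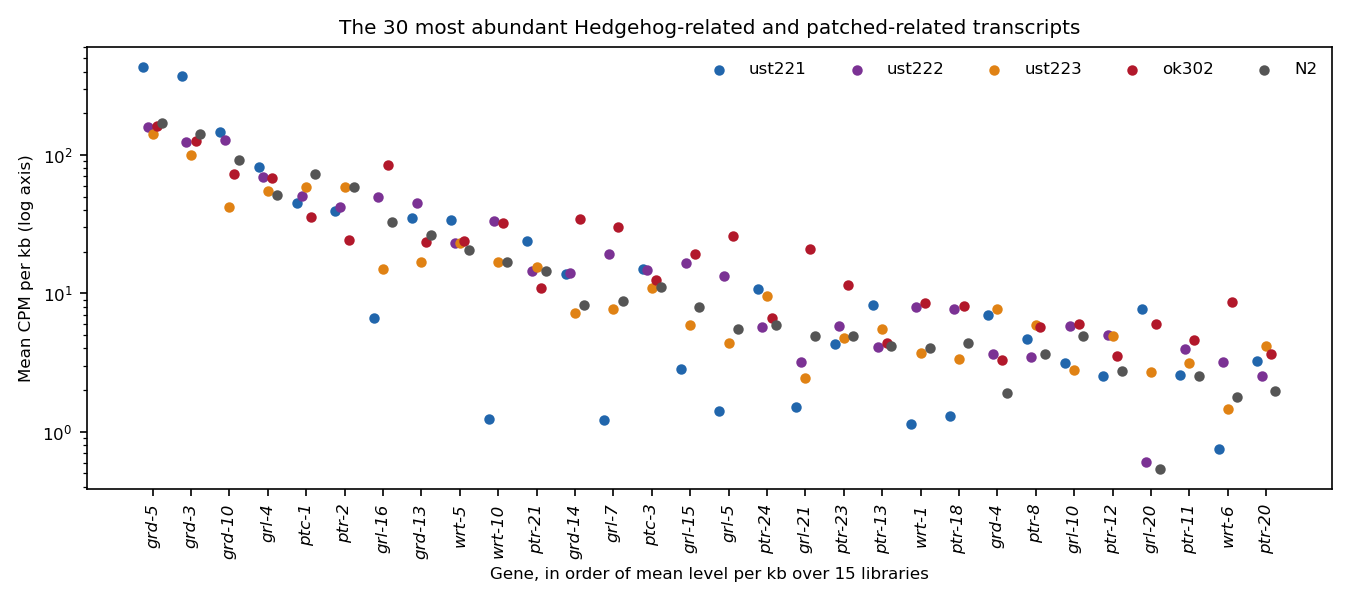
Mean level per kb of gene length (CPM per kb, log axis) of the 30 most abundant genes, with 1 point per genotype (mean of 3 libraries). The groundhog gene grd-5 leads in every genotype, grd-5 and grd-3 are highest in ust221, and the ok302 point of ptc-1 and ptr-2 is the lowest of the 5.

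Of the 76 tested genes, 47 were higher in all 3 of the libraries that stood apart than in N2 replicates 2 and 3 and ust222 replicate 2, and 4 were lower in all 3. Over all genes tested 24.3% were higher and 38.5% lower in the same sense. The 47 included 18 of 24 patched-related genes, 13 of 24 ground-like genes and 7 of 10 warthog genes. For the warthog genes the mean log2 CPM was 2.46 and 2.79 in ust222 replicates 1 and 3 and 2.51 in N2 replicate 1, against -0.02 in ust222 replicate 2 and 0.22 and 0.19 in N2 replicates 2 and 3. It was 2.53, 3.10 and 2.57 in ok302, 1.37, 1.36 and 1.23 in ust223, and -0.63, 0.41 and -0.63 in ust221. A list of 29 molting regulators and apical matrix genes, none of them Hedgehog-related, was also high in these libraries, with 4.05, 1.77 and 4.12 in ust222, 3.24, 3.17 and 2.95 in ust223, 3.55, 4.15 and 3.95 in ok302, 1.67, 2.01 and 1.52 in ust221, and 3.90, 1.94 and 1.76 in N2. Its part in the differences between genotypes was not tested. Sperm genes were at -1.35 to -1.52 in the 3 libraries and at 2.76 to 2.84 in ok302, so the libraries with high warthog levels lay at both ends of the sperm genes' range.

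**Figure D2:**
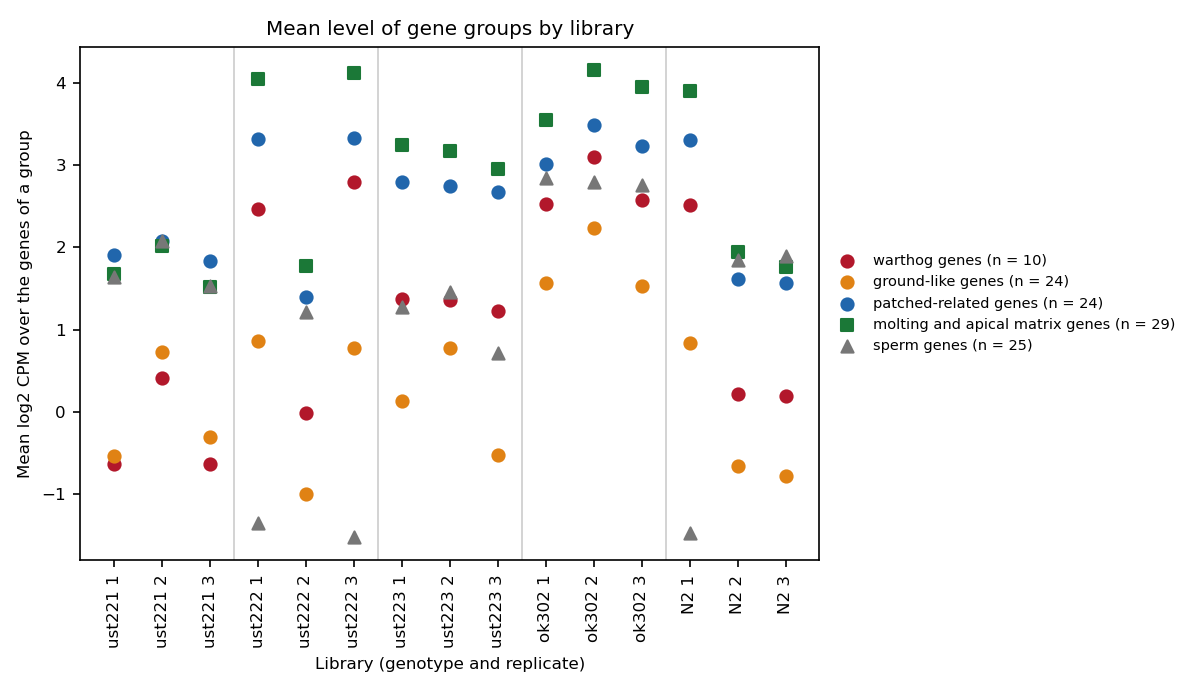
Mean log2 CPM over the genes of a group (y axis) in each of 15 libraries (x axis, genotype and replicate), for warthog, ground-like and patched-related genes, for molting and apical matrix genes, and for sperm genes. Warthog and molting genes are high in ok302 and in N2 1, ust222 1 and ust222 3, intermediate in ust223 and low elsewhere.

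**Figure D3:**
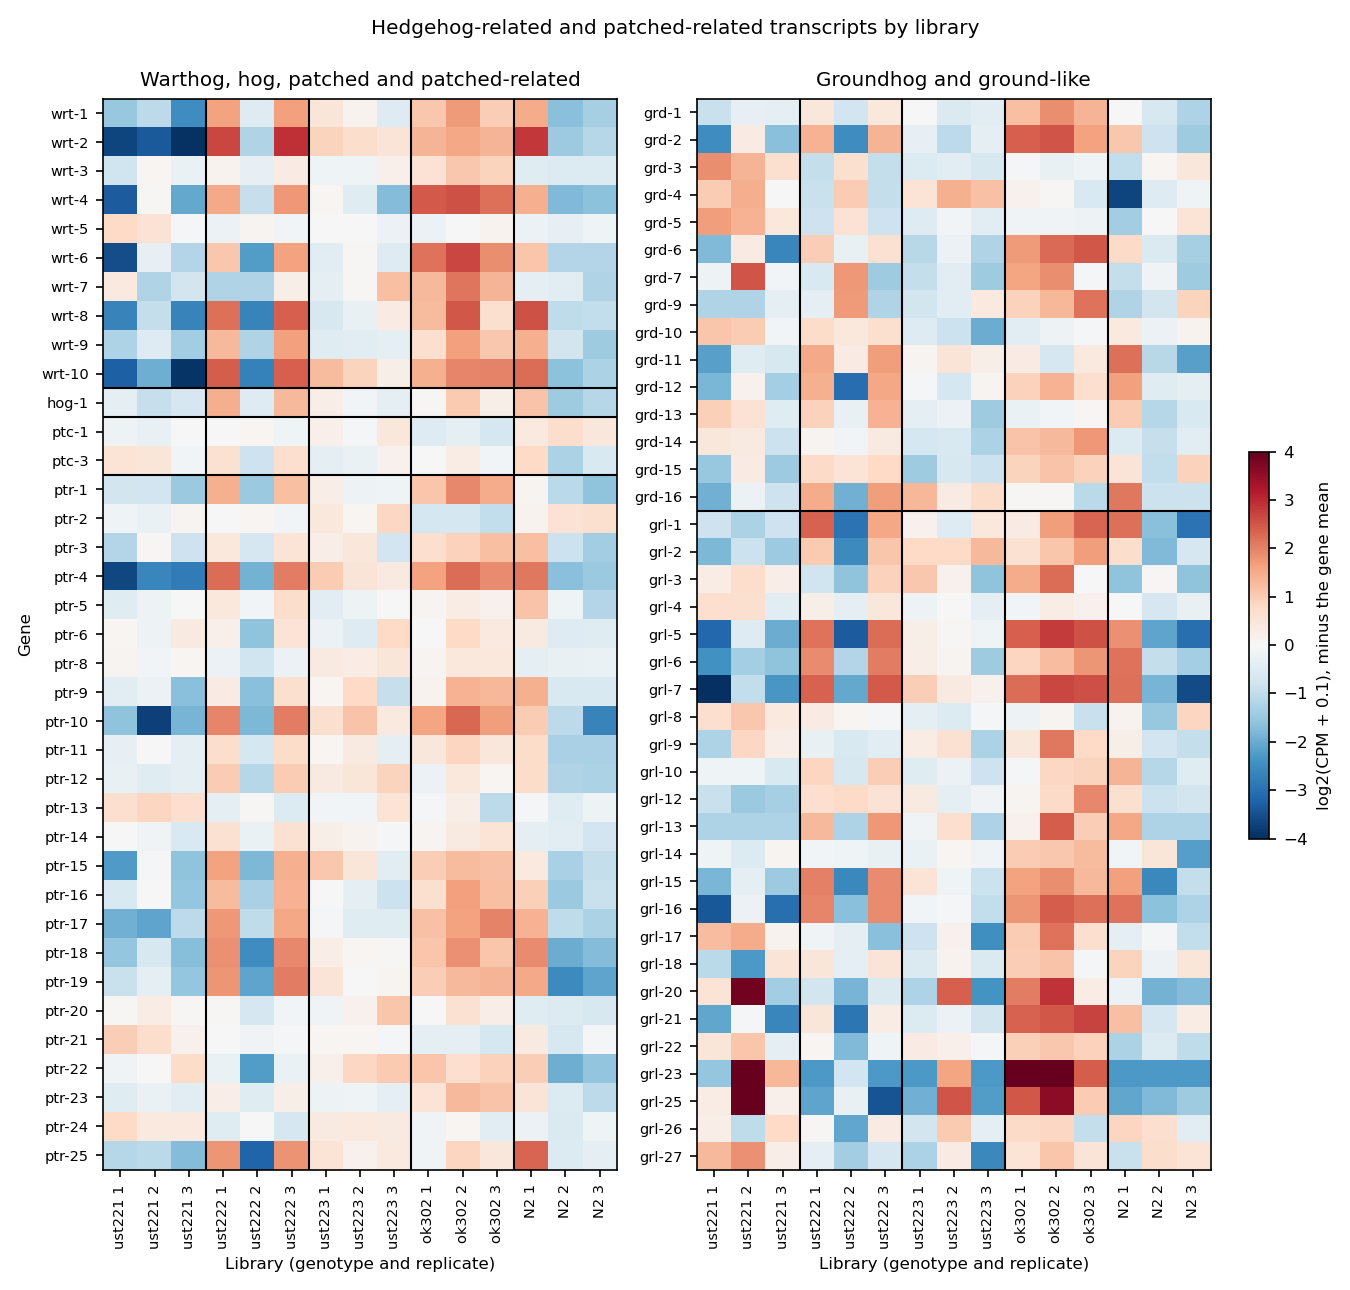
Level of each of the 76 tested genes in each library as log2(CPM + 0.1) minus the gene's own mean over 15 libraries, with colours cut at 4 and -4. Genes are in rows by family and libraries in columns by genotype, and most wrt, grl and ptr rows share the high columns of ok302, N2 1, ust222 1 and ust222 3.

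In ok302 against N2, groundhog, ground-like, warthog and patched-related genes were among those that rose, and the patched gene ptc-1 and the patched-related gene ptr-2 fell. Over 15 libraries 9 of the 76 tested genes were higher and 2 lower at a Benjamini-Hochberg adjusted p under 0.05 over all genes (edgeR quasi-likelihood test), or 11 in all. Over all genes tested 8.45% were higher and 15.4% lower, so that 23.8% were called, and 11 of 76 is below that share. By direction, 11.8% of the 76 genes were higher and 2.63% lower. Their median log2 fold change was 0.93, against 0.10 over all genes tested. All 10 warthog genes and 22 of 24 ground-like genes had a positive fold change, most of them without passing the test.

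The clearest ligand-like rise was that of grd-14, on chromosome X from 8499664 to 8501037 in the coordinates of the deposited table, for which no source used here gives the genome build. It had 27, 30.2 and 41.5 CPM in ok302, against 8.33, 6.51 and 8.88 CPM in N2. The groups did not overlap, and N2 replicate 1 did not stand apart for this gene. The log2 fold change was 2.06 ± 0.34 (SE, edgeR adjusted p = 0.00122). The groundhog gene grd-1, which keeps a Hint module, also rose, with 6.36, 10.0 and 7.05 CPM in ok302, against 2.70, 1.68 and 1.08 CPM in N2 (2.09 ± 0.45, adjusted p = 0.00496). Here N2 replicate 1 was the highest of its group, though below every ok302 library. The warthog gene wrt-3 had 3.35, 4.77 and 4.1 CPM in ok302, against 1.53, 1.47 and 1.46 CPM in N2, again without overlap (1.46 ± 0.36, adjusted p = 0.0108). These 3 calls held when any of the 6 libraries was left out, while a fit of the 6 libraries alone gave wrt-3 an adjusted p of 0.0709.

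The other ligand-like calls rested on fewer counts or on the choice of libraries. The ground-like gene grl-23 had 199, 345 and 63 counts in ok302 and 0 in each N2 library. Against a floor of 3 counts over the N2 libraries this is at least 192-fold higher (edgeR adjusted p = 0.0212; 0.0573 without N2 replicate 2 and 0.0628 without N2 replicate 3). It was uneven elsewhere too, with 1, 165 and 30 counts in ust221, 0, 4 and 0 in ust222, and 0, 40 and 0 in ust223. The ground-like gene grl-22 had 2.39, 2.62 and 2.35 CPM in ok302, against 0.430, 0.787 and 0.541 CPM in N2, with no overlap (2.05 ± 0.56, adjusted p = 0.0188; 0.0675 without N2 replicate 3 and 0.0519 without ok302 replicate 2). It overlaps the gene W03A5.1 by 41 bases on the other strand, and no source used here gives the strand setting of the counting. The groundhog gene grd-6 had 10.8, 16.1 and 18.8 CPM in ok302, against 5.63, 2.18 and 1.24 CPM in N2, where replicate 1 was the highest of its group. Its call (2.33, adjusted p = 0.0376) was lost without N2 replicate 2 or 3 or without ok302 replicate 1, 2 or 3, with adjusted p of 0.112, 0.130, 0.0771, 0.0816 and 0.141, with no filter on low counts (0.0502) and in a fit of the 6 libraries alone (0.0738).

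**Figure D4:**
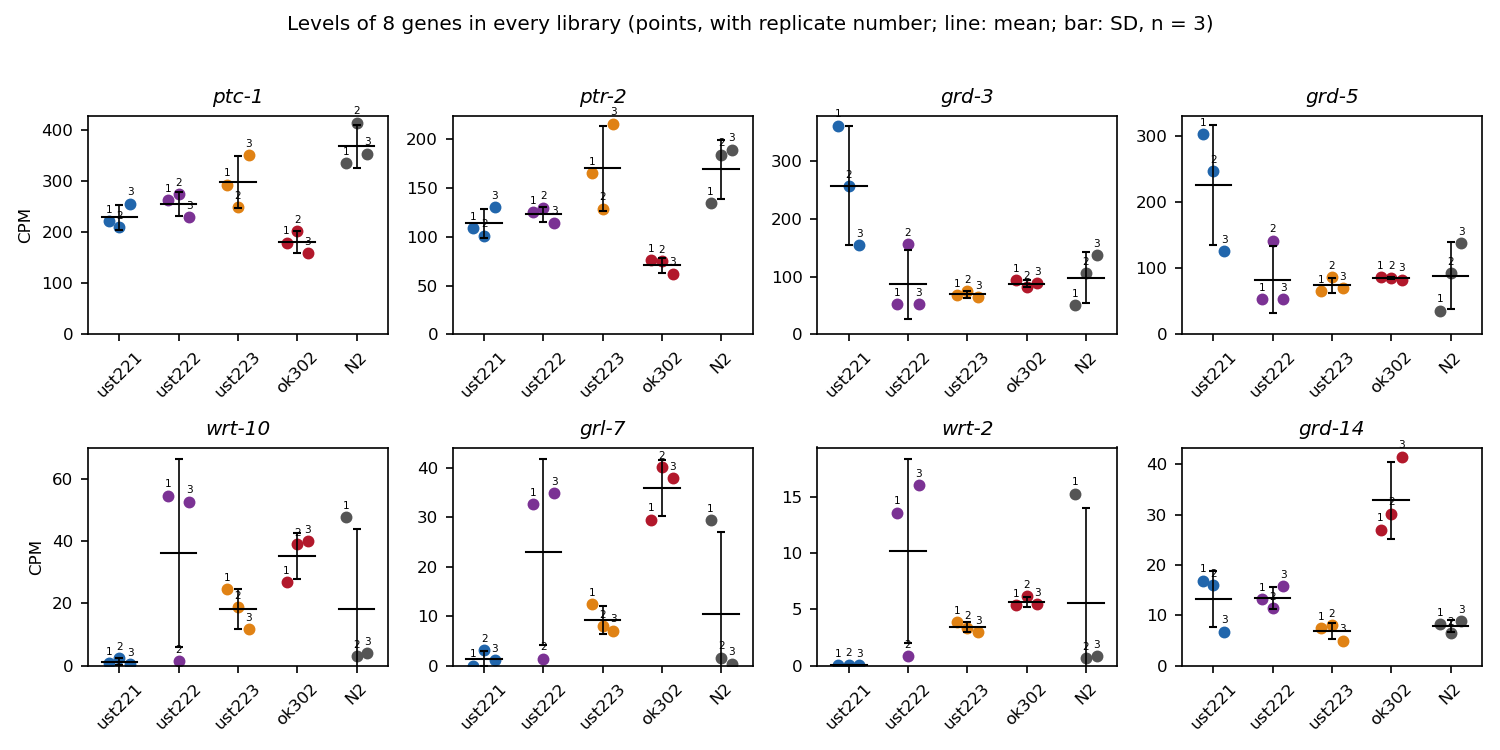
CPM (y axis, linear, starting at 0) of 8 genes in every library, by genotype; points carry the replicate number, lines are means and bars are 1 SD (n = 3), cut at 0 where they would go below. In ok302 ptc-1 and ptr-2 lie below and grd-14 above every N2 library, grd-3 and grd-5 are highest in ust221, and wrt-10, grl-7 and wrt-2 separate N2 1, ust222 1 and ust222 3 from the other libraries of those genotypes.

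On the receptor side ptc-1 and ptr-2 fell. PTC-1 is a patched protein needed for cytokinesis in the germline, and PTR-2 is a patched-related protein that acts with it downstream of the ligand WRT-10. The ptc-1 gene, on chromosome II from 7893229 to 7900510, had 179, 202 and 159 CPM in ok302, against 335, 414 and 353 CPM in N2. Every ok302 library lay below every N2 library (-1.03 ± 0.16, adjusted p = 0.000952). The ptr-2 gene on chromosome I had 75.9, 75.2 and 62.1 CPM in ok302, against 135, 184 and 190 CPM in N2, again without overlap (-1.25 ± 0.20, adjusted p = 0.000918). Both calls held when any of the 6 libraries was left out and in the 12 libraries, where the values were -1.08 ± 0.18 (adjusted p = 0.000423) and -1.39 ± 0.20 (adjusted p = 0.000162). In bulk RNA of whole animals, fewer cells of a type and less RNA per cell cannot be told apart. Oocyte genes moved with them: 14 of 16 fell in ok302, and their summed level was 4858 to 6542 CPM in ok302, against 10642 to 14130 CPM in N2. The part of the oocyte genes in the fall of ptc-1 and ptr-2 was not tested.

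The levels of ptc-1 and ptr-2 followed each other over all genotypes, with a Spearman correlation of 0.96 over the 15 libraries. For ptc-1 the next most alike of the 75 other tested genes was grd-16 at 0.14 and then ptr-21 at 0.10, and grd-14 lay at the other end at -0.84. For the other patched gene, ptc-3, which is known for sterol and osmotic balance, the most alike were grd-13 at 0.80, grl-10 at 0.77 and ptr-18 at 0.75. These correlations describe libraries that share genotypes and the split between libraries, and carry no test. The ptc-3 gene, on chromosome II from 2845384 to 2852593, had 52.9, 65.6 and 50.0 CPM in ok302, against 93.0, 22.4 and 35 CPM in N2. Replicate 1 set the N2 range, so the groups overlapped (0.16 ± 0.46, adjusted p = 0.811). Over 12 libraries ptc-3 was higher in ok302 (0.98 ± 0.24, adjusted p = 0.00507).

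The patched-related genes ptr-1, ptr-8 and ptr-23 rose in ok302 over 15 libraries. PTR-23, which acts in osmoregulation, had transcripts at 27.6, 45.7 and 41 CPM in ok302, against 26.8, 12.9 and 9.04 CPM in N2 (1.23 ± 0.35, adjusted p = 0.0222). The lowest ok302 library was only just above N2 replicate 1, and the call was lost without N2 replicate 2 or 3 or without any ok302 library, with adjusted p of 0.0802, 0.0878, 0.0708, 0.0810 and 0.163, with no filter (0.0508) and in a fit of the 6 libraries alone (0.195). The gene ptr-1 had 6.65, 11.8 and 8.67 CPM in ok302, against 3.25, 1.40 and 0.920 CPM in N2, without overlap (2.28 ± 0.65, adjusted p = 0.0230). Its call was lost without N2 replicate 2 or 3 or without any ok302 library (adjusted p of 0.0786, 0.0937, 0.0568, 0.0726 and 0.0781) and in a fit of the 6 libraries alone (0.0660), and it overlaps spas-1 by 49 bases on the other strand. The gene ptr-8 had 13.7, 17.3 and 17.2 CPM in ok302, against 9.94, 10.4 and 10.6 CPM in N2 (0.64 ± 0.22, adjusted p = 0.0455). That small difference passed in none of the 6 fits without a library, in which the adjusted p was 0.0652, 0.0958 and 0.107 with N2 replicates 1, 2 and 3 left out and 0.109, 0.133 and 0.240 with ok302 replicates 1, 2 and 3 left out, nor with no filter (0.113) or in a fit of the 6 libraries alone (0.212).

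Without the 3 libraries that stood apart, the rise in ok302 took in far more genes. Of 78 genes tested, 47 were higher and 2 lower, and all 11 calls of the 15 libraries were among them in the same direction. Over all genes 26.2% were higher and 23.6% lower, or 49.9% called. N2 replicate 1, which is left out here, was high for most Hedgehog-related genes, so that its omission by itself raises their fold changes, and nothing is read from their share against the background. Their median log2 fold change was 2.32 against 0.39 over all genes. By role, 9 of 10 warthog genes, 14 of 26 ground-like genes, 4 of 15 groundhog genes and hog-1 rose, as did 18 of 24 patched-related genes. Of the 9 genes with a Hint module, 8 rose. Over 15 libraries, leaving out N2 replicate 1 alone gave 37 calls in place of 11, and leaving out N2 replicate 2 or 3 gave 7 and 5. Leaving out ok302 replicate 1, 2 or 3 gave 7, 6 and 7. Over all genes 39.3% were called without N2 replicate 1, in place of 23.8%, and 17.6% and 13.2% without N2 replicates 2 and 3. Without ok302 replicates 1, 2 and 3 the shares of all genes were 20.5%, 15.7% and 20.2%. The molting and apical matrix list moved with the Hedgehog-related genes, and 27 of its 29 genes rose in ok302 over 12 libraries. The list summed to 537 to 858 CPM in ok302, against 190 and 171 CPM in N2 replicates 2 and 3 and 946 CPM in N2 replicate 1.

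Among called genes with a mean of at least 20 counts, those that rose most in the 12 libraries were grl-23, grl-5, grl-7, grl-1 and wrt-4 among the ligand-like genes and ptr-19 among the receptor-like ones. The ground-like gene grl-5 had 20.2, 26.3 and 22.5 CPM in ok302, against 0.787 and 0.379 CPM in N2 replicates 2 and 3 (5.25 ± 0.61, adjusted p = 4.61e-05). For grl-7 the values were 29.5, 40.2 and 37.9 CPM in ok302, against 1.65 and 0.433 CPM (5.05 ± 0.80, adjusted p = 0.000308). In N2 replicate 1 they had 13.6 and 29.5 CPM, far above the other N2 libraries, and over 15 libraries neither passed (adjusted p = 0.210 and 0.328). GRL-5 and GRL-7 have been tied, with the receptor PTR-18, to the quiescence of progenitor cells in starved larvae. The ptr-18 gene had 20.0, 32.5 and 19.9 CPM in ok302, against 34.1, 2.25 and 2.65 CPM in N2 (12 libraries 3.31 ± 0.36, adjusted p = 3.48e-05). It was chosen after its values were seen, and it overlaps Y38F1A.4 by 2344 bases on the other strand.

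The warthog genes gave the same picture. The Hint-module gene wrt-4 had 9.0, 9.61 and 7.62 CPM in ok302, against 4.38, 0.393 and 0.433 CPM in N2, and was higher in the 12 libraries (4.40 ± 0.84, adjusted p = 0.00104). The gene of WRT-10, a secreted ligand that acts on the germline through PTC-1 and PTR-2, had 26.8, 38.9 and 39.9 CPM in ok302, against 47.7, 3.18 and 4.11 CPM in N2. Over 12 libraries wrt-10 was higher in ok302 (3.28 ± 0.49, adjusted p = 0.000204), while over 15 the difference was 0.94 ± 1.06 (adjusted p = 0.536). Its neighbour wrt-1 starts on the other strand and ends 53 bases from wrt-10 on chromosome II, and the 2 genes had a Spearman correlation of 0.90 over the libraries. The exception among warthog genes was wrt-5, the most abundant per length, with 16.7, 19.8 and 21.6 CPM in ok302, against 16.6, 15.7 and 17.4 CPM in N2, where the groups overlapped (0.23 ± 0.22, adjusted p = 0.467). hog-1 had 1.76, 3.60 and 1.99 CPM in ok302, against 3.87, 0.572 and 0.704 CPM in N2 (0.51 ± 0.69, adjusted p = 0.609; 12 libraries 1.95 ± 0.48, adjusted p = 0.00506).

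Among patched-related genes with a mean of at least 20 counts the largest rises in the 12 libraries were those of ptr-19, ptr-10 and ptr-4. PTR-4 is required for the apical extracellular matrix and the molt. The ptr-4 gene had 14.2, 21.8 and 17.3 CPM in ok302, against 19.9, 1.36 and 1.57 CPM in N2 (12 libraries 3.61 ± 0.37, adjusted p = 2.39e-05). The ptr-10 gene, active in glia, had 3.89, 6.44 and 4.09 CPM in ok302, against 2.58, 0.537 and 0.108 CPM in N2 (3.79 ± 0.72, adjusted p = 0.001). The ptr-19 gene had 3.56, 4.44 and 4.62 CPM in ok302, against 5.09, 0.215 and 0.325 CPM in N2 (3.98 ± 0.50, adjusted p = 6.69e-05). For all 3, N2 replicate 1 lay in or near the ok302 range and the other N2 libraries below it. Of 14 glial genes 11 were tested. Over the 12 libraries 2 were higher and 1 lower in ok302, against 26.2% and 23.6% of all genes. The glial list summed to 200.2 to 250 CPM in ok302, against 181 and 169 CPM in N2 replicates 2 and 3 and 296 CPM in N2 replicate 1.

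**Figure D5:**
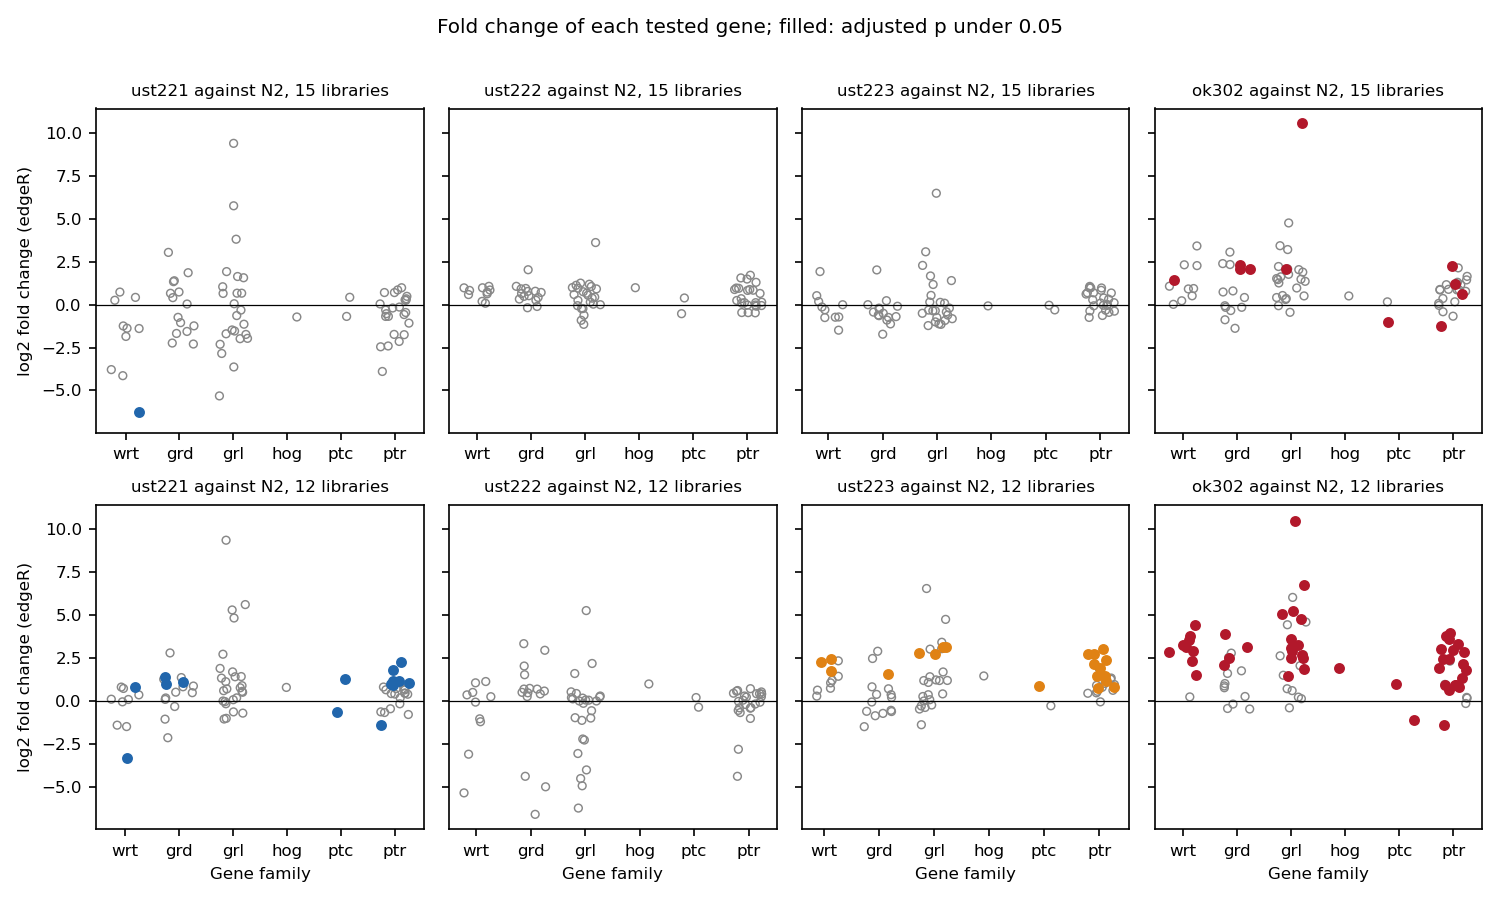
Log2 fold change (edgeR, y axis) of each tested gene against N2 by gene family (x axis, points spread sideways), for each allele, over 15 libraries in the upper row and 12 in the lower row. Filled points had an adjusted p under 0.05: 1, 0, 0 and 11 genes over 15 libraries and 15, 0, 20 and 49 over 12 for ust221, ust222, ust223 and ok302.

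In ust221 against N2, wrt-2 was the only one of the 76 genes to pass over 15 libraries, against 1.79% of all genes called (1.03% higher and 0.761% lower). This warthog gene, on chromosome X from 3092395 to 3094448, had 0.0678, 0.112 and 0.0377 CPM in ust221, against 15.3, 0.680 and 0.866 CPM in N2. The ust221 values stand for 1, 2 and 1 counts, so the size of the fold change is poorly determined. All ust221 libraries lay below all N2 libraries, and N2 replicate 1 was far above the other 2 (-6.24 ± 1.42, edgeR adjusted p = 0.0425). It no longer passed without N2 replicate 1 (-3.31, adjusted p = 0.0724) or 3 (0.0524) and without ust221 replicate 1, 2 or 3 (0.121, 0.123 and 0.0769), nor in a fit of the 6 libraries alone (0.210), and in the 12 libraries it passed (-3.31 ± 0.51, adjusted p = 0.00371). The gene overlaps pccb-1 by 63 bases on the other strand.

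The most abundant groundhog genes were highest in ust221. The gene grd-3 had 361, 256 and 154 CPM in ust221, against 50.0, 106 and 137 CPM in N2, without overlap but with a wide spread within ust221 (1.39 ± 0.44, adjusted p = 0.106). The gene grd-5 had 304, 248 and 126 CPM in ust221, against 35.8, 93.2 and 138 CPM in N2, with ust221 replicate 3 inside the N2 range (1.34 ± 0.47, adjusted p = 0.134). In the 12 libraries both passed (1.13 ± 0.26, adjusted p = 0.0180, and 1.02 ± 0.29, adjusted p = 0.0349). These 2 genes ran against the warthog pattern, being lowest in the 3 libraries that stood apart.

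Over the 12 libraries 12 genes were higher and 3 lower in ust221, against 6.99% and 6.65% of all genes, or 13.6% called. Leaving out N2 replicate 1 by itself shifts genes that were high or low in it, and nothing is read from these shares. The genes called higher were wrt-5, grd-3, grd-5, grd-13, ptc-3, ptr-11, ptr-12, ptr-13, ptr-19, ptr-21, ptr-22 and ptr-24, and those called lower wrt-2, ptc-1 and ptr-4. With library totals in place of TMM factors the split was 5 higher and 5 lower, against 2.63% and 10.8% of all genes. That scaling moved the median log2 fold change of all genes to -0.18, against 0.09 with TMM. PTR-24, a receptor of the ligand GRL-21 in lipid metabolism, had transcripts at 37.1, 28.5 and 28.3 CPM in ust221, against 18.1, 14.5 and 19.2 CPM in N2, with no overlap (15 libraries 0.86 ± 0.22, adjusted p = 0.0615; 12 libraries 0.97 ± 0.22, adjusted p = 0.0175). The gene ptr-22 had 2.51, 2.73 and 4.71 CPM in ust221, against 5.59, 0.644 and 0.866 CPM in N2 (12 libraries 2.25 ± 0.43, adjusted p = 0.00994), and ptr-13 had 23, 26.1 and 23.2 CPM in ust221, against 13.6, 10.3 and 12.6 CPM in N2 (12 libraries 1.15 ± 0.33, adjusted p = 0.0373). ptc-1 had 221, 209 and 256 CPM in ust221, below all N2 libraries (15 libraries -0.69 ± 0.16, adjusted p = 0.0509; 12 libraries -0.67 ± 0.18, adjusted p = 0.0314), and ptr-2 had 109, 101 and 131 CPM, also below all N2 libraries (-0.58 ± 0.20, adjusted p = 0.123). Of the 16 oocyte genes 5 fell in ust221 over 15 libraries, and the list summed to 7549 to 10533 CPM in ust221, against 10642 to 14130 CPM in N2.

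In ust223 against N2 no gene passed over 15 libraries (edgeR), where 1.35% of all genes were called (1.13% higher and 0.227% lower). An unadjusted p under 0.05 was reached by 5 genes, and DESeq2 called 2, against 4.23% of all genes. Leaving out N2 replicate 1 gave 1 call, against 3.05% of all genes. Over 12 libraries 20 of the 78 genes were higher and none lower, against 7.84% and 3.32% of all genes, or 11.2% called. N2 replicate 1, which is left out here, was high for most Hedgehog-related genes. Its omission by itself raises their fold changes, and nothing is read from their share against the background. The median log2 fold change was 1.04, against 0.04 over all genes. The 20 were wrt-1, wrt-2, wrt-10, grd-4, grl-1, grl-2, grl-5, grl-7, ptc-3 and 11 of the 24 patched-related genes. The molting and apical matrix list again moved with them, with 15 of 29 genes higher and 347 to 472 CPM in ust223, against 190 and 171 CPM in N2 replicates 2 and 3 and 946 CPM in N2 replicate 1.

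For wrt-10, grl-7, grl-5, ptr-4 and ptr-19 the ust223 levels lay between those of ok302 and those of N2 replicates 2 and 3. The gene wrt-10 had 24.5, 18.7 and 11.7 CPM in ust223 (12 libraries against N2 2.43 ± 0.47, adjusted p = 0.00590). The gene grl-7 had 12.4, 8.03 and 7.11 CPM (3.17 ± 0.75, adjusted p = 0.0162) and grl-5 had 4.40, 3.90 and 3.29 CPM (2.77 ± 0.58, adjusted p = 0.00862). In each, all ust223 libraries exceeded N2 replicates 2 and 3, and all lay below N2 replicate 1. The gene ptr-4 had 9.34, 6.60 and 5.92 CPM in ust223 (2.41 ± 0.36, adjusted p = 0.00108) and ptr-19 had 2.51, 1.74 and 1.86 CPM (3.02 ± 0.49, adjusted p = 0.00201). ptr-8 had 16.3, 15.7 and 18 CPM in ust223, above all 3 N2 libraries (15 libraries 0.69 ± 0.22, adjusted p = 0.185; 12 libraries 0.76 ± 0.21, adjusted p = 0.0299). The ust223 levels of ptc-1 and ptr-2 overlapped those of N2, at 293, 249 and 350 CPM and at 166, 129 and 216 CPM (-0.31 ± 0.16, adjusted p = 0.617, and 0.01 ± 0.20, adjusted p = 1.0).

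In ust222 against N2 no gene passed in the 15 or in the 12 libraries (edgeR), where 0.00581% and 0.0164% of all genes were called (over 12 libraries 0.0109% higher and 0.00545% lower). An unadjusted p under 0.05 was reached by 5 and 6 genes, and DESeq2 called 0. Both genotypes held libraries that stood apart and libraries that did not. The gene wrt-10 had 54.5, 1.44 and 52.6 CPM in ust222, against 47.7, 3.18 and 4.11 CPM in N2, and grl-16, the ground-like gene on chromosome I, had 122, 9.81 and 117 CPM in ust222, against 142, 10.2 and 13.3 CPM in N2. For ptc-1, which did not follow the split, ust222 had 262, 274 and 230 CPM, below all N2 libraries (-0.53 ± 0.16, adjusted p = 0.498). Leaving out N2 replicate 1 gave 8 calls and leaving out ust222 replicate 2 gave 2, against 5.47% and 3.44% of all genes.

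Against ok302, the 3 ust alleles were set directly beside the allele whose puf-8 transcripts were almost absent. These comparisons share the ok302 libraries. In ust221, 4 genes were higher and 18 lower over 15 libraries, against 10.9% and 5.85% of all genes, or 16.7% called. The median log2 fold change was -1.38, against -0.11 over all genes. The lower genes included 6 of 10 warthog genes (wrt-1, wrt-2, wrt-3, wrt-4, wrt-6 and wrt-10) and the higher ones were grd-3, ptr-2, ptr-21 and ptr-24. With library totals 0 were called higher and 18 lower, against 2.11% and 9.19% of all genes. Of the 22 genes, 1, 6 and 10 still passed without ust221 replicates 1, 2 and 3, and 15, 8 and 7 without ok302 replicates 1, 2 and 3. In the 12 libraries the counts were 9 higher and 39 lower, with 41% of all genes called (21.2% higher and 19.8% lower). With library totals they were 3 higher and 46 lower there, against 4.61% and 32.6% of all genes.

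Single genes showed how far apart the 2 genotypes were. The gene wrt-2 had 0.0678, 0.112 and 0.0377 CPM in ust221, against 5.40, 6.19 and 5.47 CPM in ok302 (-6.26 ± 1.42, adjusted p = 0.0136). With 1, 2 and 1 counts in ust221, the size of that change is poorly determined. The gene ptr-4 had 0.271, 0.669 and 0.565 CPM in ust221, against 14.2, 21.8 and 17.3 CPM in ok302 (-5.11 ± 1.17, adjusted p = 0.0139). The gene of GRL-21 had 0.474, 2.29 and 0.301 CPM in ust221, against 12.5, 13.7 and 15.8 CPM in ok302 (-3.78 ± 0.90, adjusted p = 0.0164). None of these groups overlapped. The calls were lost without ust221 replicate 1 (adjusted p = 0.0735 for wrt-2, 0.0815 for ptr-4 and 0.0903 for grl-21), and the first pair also without ust221 replicate 2 (0.0520 and 0.0546). In the other direction ptr-21 had 98.8, 81.9 and 56.3 CPM in ust221, against 39.5, 38.8 and 31 CPM in ok302 (1.12 ± 0.24, adjusted p = 0.0121; 0.114 without ust221 replicate 1, 0.0744 without ust221 replicate 2 and 0.102 with library totals). The gene grl-21 was chosen after its values were seen. The molting and apical matrix list summed to 144 to 184 CPM in ust221, against 537 to 858 CPM in ok302.

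In ust222 against ok302, 2 genes were higher (ptc-1 and ptr-2) and 5 lower (grd-1, grd-14, grl-21, grl-23 and ptr-8) over 15 libraries, against 7.62% and 9.25% of all genes, or 16.9% called. With library totals the split was 0 higher and 3 lower, against 7.12% and 10.6% of all genes. With DESeq2 size factors it was 2 and 2, against 11.8% and 9.63%. Of the 7 genes, 0, 4 and 2 still passed without ust222 replicates 1, 2 and 3, and 2 without any single ok302 library. Over 12 libraries ust222 keeps only replicate 2, so levels are given in place of calls. The mean log2 CPM of the 76 tested genes was 0.55 in ust222 replicate 2 and 2.39, 2.87 and 2.44 in ok302. In ust222 replicates 1 and 3, which are left out there, it was 2.23 and 2.23. In ust223 against ok302, 2 genes were higher (ptc-1 and ptr-2) and 5 lower (grd-1, grd-6, grd-14, grl-21 and ptr-23) over 15 libraries, against 12.2% and 5.58% of all genes, or 17.7% called. With library totals 1 was higher and 6 lower, against 9.18% and 6.67% of all genes. Of the 7 genes, 4, 4 and 2 still passed without ust223 replicates 1, 2 and 3, and 5, 4 and 4 without ok302 replicates 1, 2 and 3. In the 12 libraries 5 were higher and 27 lower, with 42.8% of all genes called (22.7% higher and 20.1% lower). With library totals these counts were 2 and 33, against 13.3% and 24.6% of all genes.

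The gene grd-14 was lower than in ok302 in all 3 comparisons over 15 libraries. It had 16.9, 16 and 6.78 CPM in ust221 (-1.32 ± 0.33, adjusted p = 0.0205), 13.3, 11.4 and 15.8 CPM in ust222 (-1.29 ± 0.33, adjusted p = 0.0213) and 7.53, 8.07 and 5.02 CPM in ust223 (-2.26 ± 0.35, adjusted p = 0.00153), against 27, 30.2 and 41.5 CPM in ok302. Its adjacent gene grd-4, 207 bases away on the same strand, had a Spearman correlation of -0.10 with it over the libraries. With TMM scaling ptr-2 was higher in all 3, with 109, 101 and 131 CPM in ust221 (0.68 ± 0.20, adjusted p = 0.0329), 125, 130 and 115 CPM in ust222 (0.80 ± 0.20, adjusted p = 0.0171) and 166, 129 and 216 CPM in ust223 (1.26 ± 0.20, adjusted p = 0.00167), against 75.9, 75.2 and 62.1 CPM in ok302. In none of the 3 did the groups overlap, for either gene. In ust223 both calls held without any of the 6 libraries. For grd-14 the call was lost in ust221 without ok302 replicate 3 (0.0820), and in ust222 without ok302 replicate 1 or 3 (0.0586 and 0.165) or ust222 replicate 1 or 3 (0.0679 and 0.0586). For ptr-2 it was lost in ust221 without ok302 replicate 2 (0.0715) or ust221 replicate 1, 2 or 3 (0.0799, 0.0595 and 0.0901), and in ust222 without ust222 replicate 1 (0.0521). With ptc-1 the difference passed in ust222 (0.50 ± 0.16, adjusted p = 0.0489) and in ust223 (0.72 ± 0.16, adjusted p = 0.00927). It was lost in ust222 without ok302 replicate 2 (0.0612) or ust222 replicate 1 or 2 (0.128 and 0.0986), and in ust223 without ust223 replicate 3 (0.0516). With library totals ptr-2 was higher in ust223 (1.14, adjusted p = 0.00813) but did not pass in ust221 (0.25, adjusted p = 0.479) or in ust222 (0.72, adjusted p = 0.0546). With that scaling ptc-1 did not pass in ust222 (0.43, adjusted p = 0.193) or in ust223 (0.60, adjusted p = 0.0791), and in a fit of the 6 libraries alone it did not pass in ust222 (0.0540).

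Of 18 other genes of the pathway, 2 rose and 3 fell in ok302 against N2 over 15 libraries, and 7 rose and 2 fell over 12. Over all genes tested 8.45% were higher and 15.4% lower over 15 libraries, and 26.2% and 23.6% over 12. The rises over 15 libraries were those of qua-1, which codes for a further Hedgehog-related protein, and lrp-1, a megalin. The qua-1 gene had 28, 52.0 and 38.1 CPM in ok302, against 15.0, 2.15 and 1.79 CPM in N2 (2.64 ± 0.82, adjusted p = 0.0338; 12 libraries 4.32 ± 0.39, adjusted p = 1.48e-05). Those that fell were the F-box gene lin-23 (-1.04 ± 0.18, adjusted p = 0.00169), the casein kinase gene kin-19 (-0.66 ± 0.17, adjusted p = 0.0145) and gsk-3 (-0.60 ± 0.20, adjusted p = 0.0466; 12 libraries -0.36, adjusted p = 0.121), whose fly homologs process the transcription factor of the Hedgehog pathway. The hhat-1 gene, a homolog of the acyltransferase that lipidates Hedgehog in other animals, had 9.92, 10.0 and 8.75 CPM in ok302, against 15.6, 0.858 and 0.974 CPM in N2 (12 libraries 3.39 ± 0.37, adjusted p = 3.32e-05). che-14, a worm gene of the Dispatched family that exports lipid-linked Hedgehog, rose in the 12 libraries too (2.16 ± 0.43, adjusted p = 0.00132). In ust223 qua-1 and hhat-1 rose over the 12 libraries (1.99 ± 0.36, adjusted p = 0.00383, and 2.37 ± 0.36, adjusted p = 0.00131). None of the 18 passed in ust221, ust222 or ust223 over 15 libraries (edgeR).

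Markers of cells that these genes are known from were read alongside. For comparison, 8.45% of all genes tested rose and 15.4% fell in ok302 over 15 libraries, and 26.2% and 23.6% over 12. Of 14 hypodermal and seam genes 12 were tested, and in ok302 1 rose and 1 fell over 15 libraries and 4 rose and 1 fell over 12. The list summed to 205 to 278 CPM in ok302, against 336, 194 and 153 CPM in N2. Of 10 genes of the excretory duct and pore, vulva and rectum, 1 rose over 15 libraries and 7 over 12. The list summed to 39.6 to 55.1 CPM in ok302, against 54.5, 22.6 and 22.3 CPM in N2. Its genes lpr-1 and let-653 are also on the molting and apical matrix list. Male somatic genes summed to 21.0 to 30.6 CPM in ok302, against 4.86 to 6.49 CPM in N2. Of the 9, 8 were tested over 15 libraries and 1 rose, and 5 of 9 rose over 12. In N2 replicate 1 the male genes lov-1, cwp-1, cwp-2 and cwp-3 were at 0, while cwp-4, cwp-5 and pkd-2 were at their highest of the N2 libraries (3.33, 1.60 and 0.704 CPM). The part of these cell types in the differences of the Hedgehog-related genes was not tested.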

How the data were processed

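RNA-seq counts per gene, deposited by the authors as whole numbers for 15 libraries, were used as deposited. Reads were aligned with HISAT2 2.0.5, per the submitters' processing notes; no source used here gives the counting program, strand setting, annotation or genome build. Genes and lists were chosen with earlier results of these data known. Genes kept by edgeR's filterByExpr (17217 of 47111) entered 1 fit over all libraries with TMM scaling, followed by edgeR 4.0.16 quasi-likelihood tests (R 4.3.3) of 7 comparisons. P-values were adjusted by Benjamini-Hochberg over all genes tested, with a threshold of 0.05. The SE of a log2 fold change is its size over the root of the F statistic. The fit over 12 libraries tested 18343 genes. The common biological coefficient of variation was 0.477 in 15 and 0.269 in 12 libraries. CPM use TMM-scaled library sizes, and mean log2 CPM a prior count of 2. Genes are named if called against N2 over 15 libraries, if among the 6 largest called changes per direction over 12 libraries at a mean of at least 20 counts, if ptc-1, ptc-3 or hog-1, or if among the 3 highest per kb of a family. Exceptions are stated. Alternatives were DESeq2 1.42.0, its size factors, library totals, no filter, only the 6 libraries compared, a replicate block and leaving out each library. Data with 16908 genes were simulated for ok302 against N2. In them 10 of 100 genes changed 2-fold and 49 of 100 changed 4-fold were recovered, with 4 false calls. The changed genes were a small part of those simulated, whereas 23.8% of all genes were called in the data. The split between libraries was not simulated as a shared shift, so recovery in the data may differ.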

Additional observations from a re-analysis of the deposited data

How the results depend on the processing

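Counts of Hedgehog-related genes called depended on the libraries more than on the filter. Over 12 libraries, and over 12 with library totals (an alternative chosen after seeing the data), they were 49 and 54 for ok302 against N2 (11 over 15 libraries), 15 and 10 for ust221 (1), 20 and 18 for ust223 (0), and, against ok302, 48 and 49 for ust221 (22), 37 and 38 for ust222 (7) and 32 and 35 for ust223 (7). The 12-library counts for ust222 rest on its single library, which is assumed to vary like the other groups, and nothing is read from them. DESeq2 called 18, 15 and 2 for ok302, ust221 and ust223 against N2, and 11 and 14 for ust222 and ust223 against ok302. Over all genes it called 31.6%, 12.2% and 4.23% against N2, and 29% and 26.9% against ok302, in that order. With only the 6 libraries compared the counts were 7 and 0 for ok302 and ust221 against N2. Against ok302 they were 44 and 41 for ust221 and ust223. The shares of all genes with 6 libraries were 18.1% and 0.00666% against N2, and 40.2% and 54.2% against ok302. For ust221 against N2 DESeq2 size factors gave 3, library totals 2 and no filter 3, against 4.25%, 6.58% and 2.15% of all genes. For ust222 against ok302 these settings gave 4, 3 and 4, against 21.4%, 17.7% and 14% of all genes. Leaving out 1 library gave 5 to 37, 0 to 5, 0 to 8 and 0 to 1 calls for ok302, ust221, ust222 and ust223 against N2. Over all genes the shares were 13.2% to 39.3%, 0.469% to 8.42%, 0.00565% to 5.47% and 0.482% to 3.05%, in that order. Against ok302 the calls were 1 to 15, 0 to 4 and 2 to 7 for ust221, ust222 and ust223. The shares of all genes there were 4.07% to 14.5%, 7.86% to 24.4% and 7.86% to 16.3%. The cause was not tested.

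In none of the 7 comparisons did all 3 same-numbered pairs of libraries correlate above 0.1. Over all genotypes the correlations were -0.64 to 0.785 with the same number and -0.847 to 0.78 with another. Between ust221 and ust223, which were not compared, all 3 same-numbered pairs were above 0.1 (0.138 to 0.318), and 10 of 15 libraries correlated best with their own number, a hint from the data and not the design. The replicate block gave 0 calls for ust221 against N2, 13 for ok302, and 16, 6 and 10 for ust221, ust222 and ust223 against ok302. Over all genes 0.941%, 21.9%, 14.2%, 16.3% and 15.6% were called with the block, in that order. Under it ptr-8 in ok302 had an adjusted p of 0.0600 and wrt-2 in ust221 of 0.0792.

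Of the single-gene values, 46 changed sign, 41 lost and 47 gained a call, and 426 did neither. In ust223 against N2, grl-1, grl-5, grl-7, hog-1 and ptc-3 (-0.75, -0.35, -0.20, -0.07 and -0.03) became 3.13, 2.77, 3.17, 1.46 and 0.86 over 12 libraries, 3.16, 2.79, 3.19, 1.51 and 0.93 with library totals as well, and 0.043, 0.17, 0.32, 0.21 and 0.12 with the block. Without single libraries they ranged from -1.32 to 3.15, -0.89 to 2.78, -0.76 to 3.19, -0.49 to 1.45 and -0.38 to 0.86. Library totals gave ptc-3 0.007. In ust223, ptr-19 (0.11) was -0.026 with DESeq2 or its size factors and -0.027 with 6 libraries, and -0.42 to 3.01 without single libraries. In ust221, hog-1 and ptr-19 became 0.79 and 1.79 over 12 libraries and 0.52 and 1.5 with library totals as well, with ranges of -1.13 to 0.79 and -1.61 to 1.78. In ust221, ptr-11 (0.04) was -0.031 with DESeq2, its size factors or 6 libraries, -0.27 with library totals and -0.29 to 1.15 without single libraries. In ok302, ptc-3 (0.16) was -0.037 with 6 libraries and -0.20 to 0.98 without single libraries. Library totals moved the median of all genes to -0.34 for ust221 against N2 and -0.56 for ust221 against ok302, against -0.09 and -0.11 with TMM.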
